A study of Gallus gallus with 32 samples.

Results

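The pituitary of slow-growing broiler cockerels was compared between 6 and 3 weeks of age. The libraries were chosen by their labels as pituitary samples of low growth rate (LGR) birds, which gave 8 of the 32 libraries of the series, 4 at each age. All birds were males of the Ross 308 strain, a commercial hybrid kept for meat, and the labels name no treatment. The labels give day 22 for the younger and day 42 for the older birds, while the sample titles carry the numbers 14 and 28, which are not explained. The paper's methods name a later slaughter day for the older birds. LGR birds were the light birds of the flock, and the high growth rate (HGR) birds, with which they are compared here, were the heavy ones, kept in other pens, so that growth rate and pen cannot be told apart. Each library came from another bird, and the hypothalamus of the same birds was sequenced as well. By the paper's methods the feed changed with age, from a starter to a grower and a finisher diet. Feed was withdrawn for some hours before slaughter, and the birds were stunned electrically. The age of the birds, their feed, the day of slaughter and the handling of each age group cannot be told apart. The p-values measure only the spread between these birds.

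The anterior pituitary is a gland made of several secretory cell types, each of which makes its own hormone. Corticotropes cut adrenocorticotropic hormone from proopiomelanocortin (POMC), thyrotropes and gonadotropes pair a shared alpha subunit (CGA) with the specific beta subunits TSHB and FSHB, and lactotropes make prolactin (PRL). Releasing factors from the hypothalamus reach these cells through the portal blood, and hormones of the thyroid, adrenal and gonads feed back on them. The gland also holds stem, folliculostellate, vascular and immune cells.

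The labelled tissue was checked against its hormones. POMC, CGA and PRL lay between 15081 and 108258 CPM (the counts of a gene relative to the scaled library total) in all 8 libraries. The lineage factors LHX3 and PITX1, which specify pituitary cells, lay at 225 to 448 CPM and 110 to 170 CPM. The genes of growth hormone and of the luteinizing hormone beta subunit carry no symbol in the tables used here and were not matched. The total counts were 14454321 to 18256297 in 7 of the libraries and 6231478 in replicate 4 of the 3-week birds. That library stood apart in further ways, with 16447 genes detected against 17708 to 18373, 34.8% of its counts in the 10 highest genes against 21.1% to 28.6%, and a TMM scaling factor of 0.70 against 0.98 to 1.116. Across the 14695 genes tested, its log2 CPM correlated with the other 7 libraries at a Pearson r of 0.85 to 0.89, while all other pairs lay between 0.96 and 0.98.

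The deviation of this library followed the length of the genes. Among genes with a genomic span of at most 2 kb (2000 bases), its log2 CPM was 0.68 higher in the median than the mean of the other 3 birds of its age, and among genes spanning over 50 kb (50000 bases) it was lower, at a median of -1.01. The other 3 birds stayed within -0.13 and 0.09 in every class of span. In it 25.0% of the tested genes were over 2-fold lower and 13.5% over 2-fold higher than the mean of those 3. Values below rest on all 8 libraries unless stated otherwise, and values without this bird are set beside many of them. What part the state of its RNA had was not tested.

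**Figure D1:**
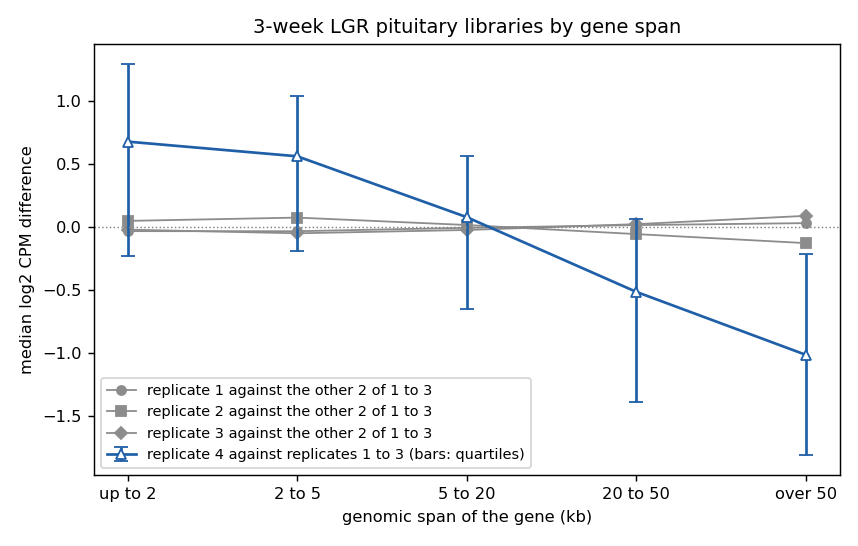
Median difference in log2 CPM of each 3-week LGR library from other birds of its age, by genomic span of the gene in kb. Replicates 1 to 3 (grey) stay near 0, while replicate 4 (triangles, bars for the quartiles) runs from 0.68 in the shortest to -1.01 in the longest genes.

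With all 8 libraries 0 genes (0%) passed edgeR's quasi-likelihood test, where a call needed a Benjamini-Hochberg adjusted p no higher than 0.05 and a fold of 1.5 or more. Of 14695 genes, 542 (3.69%) had an unadjusted p under 0.05, 232 (1.58%) with higher and 310 (2.11%) with lower counts at 6 weeks, and the smallest adjusted p was 0.779. Without the 3-week replicate 4 there was again no call among 14877 genes, but the smallest adjusted p was 0.0577, and 802 genes (5.39%) had an unadjusted p under 0.05, 427 (2.87%) higher and 375 (2.52%) lower. DESeq2 called 9 genes with 8 libraries (0.0443% of those tested), 4 higher (0.0197%) and 5 lower (0.0246%), and 25 without that bird (0.124%), 15 higher (0.0741%) and 10 lower (0.0494%), and 8 genes were in both sets. The weighted test voomWithQualityWeights called 2 genes (0.0136%). The biological coefficient of variation was 0.31 with the bird and 0.21 without it, against 0.19 in the HGR pituitaries. In 293 genes (1.99%) every 6-week bird lay above every 3-week bird, and in 266 (1.81%) every one lay below.

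STK32A, which encodes a serine/threonine kinase, had the smallest DESeq2 p among the named genes that were higher at 6 weeks with 8 libraries. It was at 15.7, 19.4, 17.5 and 13.0 CPM in the 3-week birds and at 28.1, 32.7, 33.3 and 30.7 CPM in the 6-week birds. The ages did not overlap, and the low-total library was the lowest of its age. The log2 fold change was 0.92 ± 0.17 (SE, n = 4 against 4), a 1.90-fold difference, which passed in DESeq2 (adjusted p = 6.44e-05) and not in edgeR (adjusted p = 0.779). NMRAL1, a sensor of the NADPH state of the cell, was at 27.8, 29.1, 30.9 and 47.5 CPM at 3 weeks and at 58.1, 60.5, 59.0 and 50.6 CPM at 6 weeks. Here the low-total library stood nearest to the 6-week birds, and without it the log2 fold change went from 0.76 to 0.96 ± 0.09 (edgeR adjusted p = 0.0577, DESeq2 adjusted p = 2.3e-13). CCNA1, which encodes cyclin A1, had a mean of 18.4 ± 11.6 CPM (SD, n = 4) at 3 weeks and of 56.8 ± 11.1 CPM at 6 weeks with no overlap. It passed in DESeq2 without the low-total library (adjusted p = 0.0166) and not with it (adjusted p = 0.141). In HGR pituitaries the log2 fold changes of STK32A and CCNA1 were 0.25 and 1.04 (edgeR unadjusted p = 0.137 and 0.00235).

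Opticin (OPTC), a small leucine-rich proteoglycan of the matrix, was lower at 6 weeks. Its level was 28.4, 28.4, 28.9 and 35.9 CPM at 3 weeks and 19.4, 16.3, 15.4 and 15.0 CPM at 6 weeks. All older birds lay below all younger ones, at a log2 fold change of -0.88 ± 0.16 (DESeq2 adjusted p = 0.000124, edgeR adjusted p = 0.779). TMEM182, a membrane protein known from muscle, was at 12, 42.0, 16.7 and 55.3 CPM in the younger and at 3.03, 7, 1.71 and 6.71 CPM in the older birds. The ages did not overlap, and DESeq2 gave an adjusted p of 0.00472 at a log2 fold change of -2.76 ± 0.61 in edgeR. CACNG5, a subunit of the gamma family that attaches to calcium channels and glutamate receptors, had a log2 fold change of -1.64 ± 0.38 (DESeq2 adjusted p = 0.0407) with no overlap. The low-total library was its highest younger value, at 15.4 CPM, and without that library CACNG5 did not pass (DESeq2 adjusted p = 0.0538). MFAP2, a protein of elastic microfibrils, was lower in every older bird, at 97.0 ± 14.8 CPM against 60.4 ± 9.72 CPM (SD, n = 4), and passed in DESeq2 without the low-total library (adjusted p = 0.0473). PPDPF and HS3ST1, an enzyme that sulfates heparan sulfate, also passed there, with log2 fold changes of -0.64 and -0.72 in edgeR without that library. In HGR pituitaries OPTC, TMEM182 and MFAP2 were lower too, at log2 fold changes of -0.78, -0.97 and -0.57 (edgeR unadjusted p = 0.0487, 0.0222 and 3.4e-04). CACNG5, PPDPF and HS3ST1 were at -0.73, -0.20 and -0.14 there (unadjusted p = 0.174, 0.253 and 0.435).

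**Figure D2:**
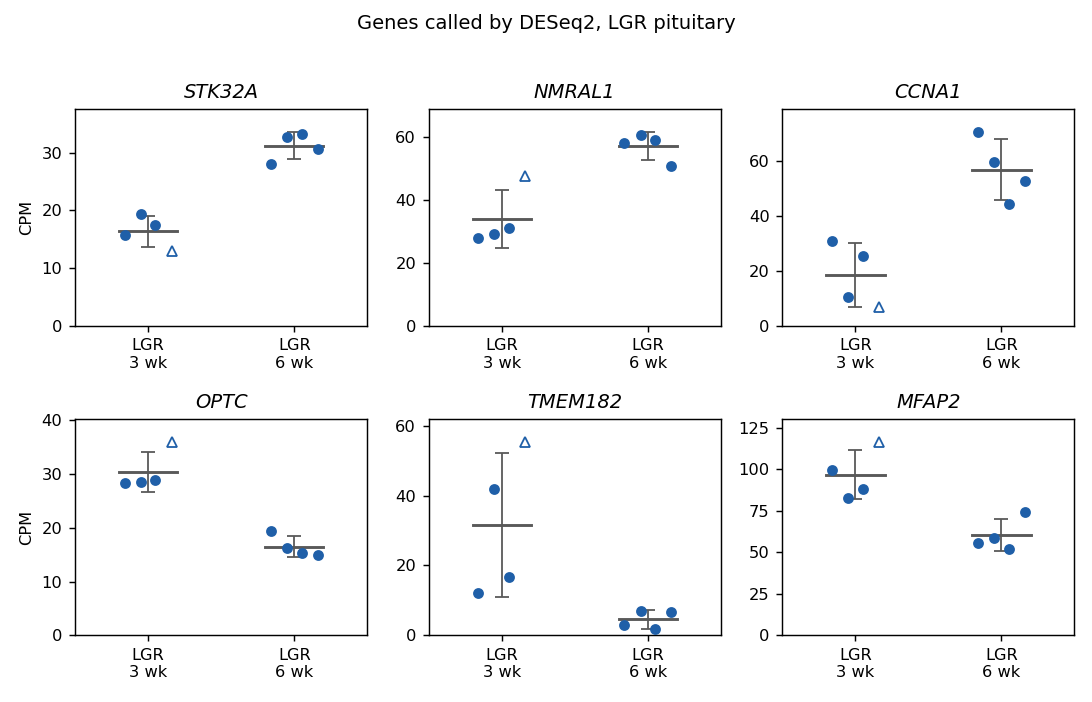
CPM of 6 genes that DESeq2 called with or without the low-total library, in the 4 LGR birds of each age (points), with mean and SD. The open triangle is that library, 3-week replicate 4, which lies below the other 3-week birds in STK32A and CCNA1 and above them in NMRAL1, OPTC, TMEM182 and MFAP2.

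Some called genes carried no symbol. ENSGALG00000027891, on chromosome Z at 46440142 to 46459626 in coordinates for which the tables name no genome build, was at 507 to 552 CPM in the younger and 266 to 344 CPM in the older birds. Its log2 fold change of -0.77 ± 0.13 was hardly moved by the low-total library (-0.78 without it). It was the gene with the smallest p in DESeq2 with 8 libraries and the 1 gene called by edgeR in a fit over all 16 pituitary libraries. In HGR pituitaries its log2 fold change was -0.40 (edgeR adjusted p = 0.0497). ENSGALG00000031978, on chromosome 2, was at 4.74 to 7.57 CPM in the younger and at 11.03 to 27.2 CPM in the older birds (log2 fold change 1.66 ± 0.32). ENSGALG00000036865 had no count in 3-week replicates 1 to 3, was at 2.13 CPM in replicate 4, and lay at 0.65 to 1.37 CPM in the older birds. It was called by voomWithQualityWeights and, without that library, by DESeq2. With that library it had a log2 fold change of 2.05 in edgeR and overlapped between the ages.

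None of the 5 hormone genes passed the test in either direction, in edgeR or DESeq2. POMC was at 57600, 26377, 54568 and 108258 CPM at 3 weeks and at 41406, 38244, 69429 and 90998 CPM at 6 weeks, which overlaps over most of the range (log2 fold change -0.04 ± 0.48, and 0.38 ± 0.38 without the low-total library). CGA was at 19411, 30058, 29938 and 61295 CPM and then at 21869, 26266, 22204 and 23395 CPM. Its log2 fold change of -0.58 ± 0.36 became -0.18 without the low-total library, which was the highest of its age in POMC and CGA. PRL was at 20010 to 42573 CPM at 3 weeks and at 15081 to 49399 CPM at 6 weeks (log2 fold change 0.16 ± 0.40, and 0.43 without that library). FSHB varied most between birds, with 421 and 2111 CPM as the extremes of the younger and 479 and 2011 CPM as those of the older birds. TSHB was the hormone gene with the most even level at 6 weeks, at 2649, 2590, 2595 and 2849 CPM, against 1798, 1622, 2459 and 3181 CPM at 3 weeks. Without the low-total library every older bird lay above every younger bird in TSHB, as in 2.95% of all genes, at a log2 fold change of 0.45 (unadjusted p = 0.0166, adjusted p = 0.897).

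Among 15 tested genes of granins and prohormone processing, none had an unadjusted p under 0.05 with 8 libraries. Chromogranin A (CHGA), a core protein of secretory granules, was nevertheless separated between the ages. It was at 49421, 47844, 55693 and 57326 CPM in the younger and at 66642, 71259, 72832 and 79048 CPM in the older birds, without overlap. The log2 fold change was 0.46 ± 0.26 (adjusted p = 0.779), and without the low-total library 0.51 ± 0.15 (edgeR adjusted p = 0.897, DESeq2 adjusted p = 0.000405), at a fold under the 1.5 that a call needs.

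**Figure D3:**
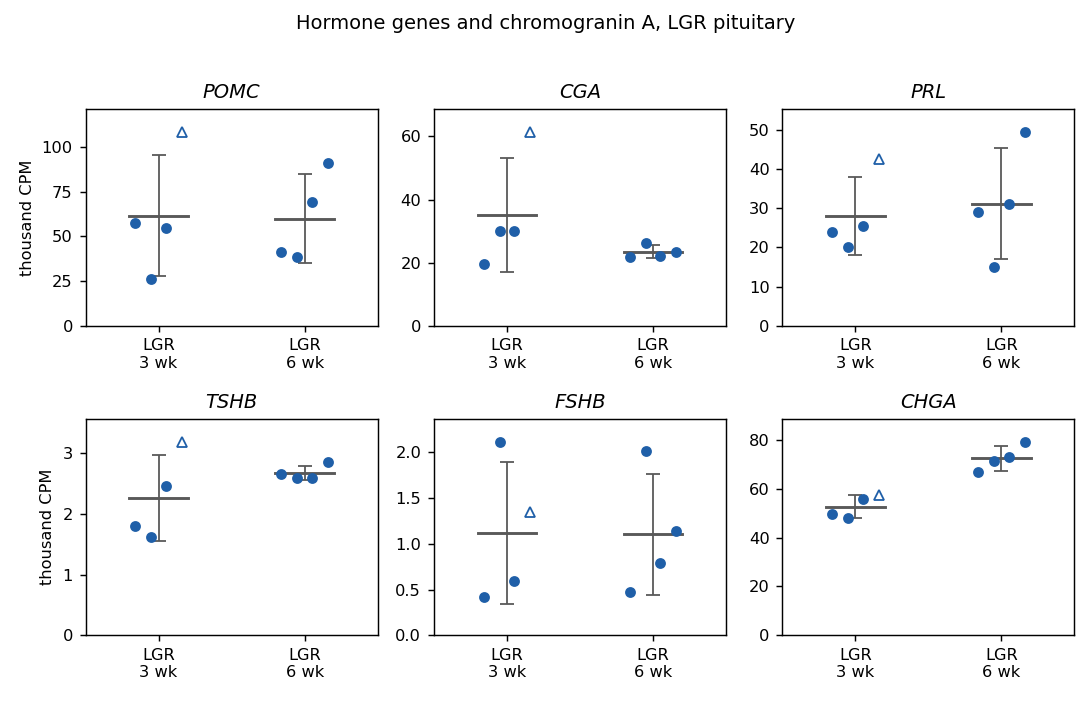
Level in kCPM of the 5 matched hormone genes and of CHGA in the 4 LGR birds of each age, with mean and SD. The open triangle is the low-total library. CHGA lies at 47844 to 57326 CPM in the younger and 66642 to 79048 CPM in the older birds, and the hormone genes overlap.

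Of 19 tested receptors for hypothalamic factors 1 was higher and none lower at an unadjusted p under 0.05, against 1.58% of all genes higher, and without the low-total library 2 were higher and 1 lower, against 2.87% and 2.52%. The gene with 8 libraries was TRHR, the receptor for thyrotropin-releasing hormone on thyrotropes. It was at 22.4, 35.9, 32.9 and 13.5 CPM at 3 weeks and at 42.7, 40.3, 50.1 and 42.6 CPM at 6 weeks, without overlap (log2 fold change 0.73 ± 0.27, unadjusted p = 0.0252, and 0.53 without the low-total library). GHRHR, the receptor for growth hormone-releasing hormone, was at 174, 560, 188 and 434 CPM and then at 154, 195, 224 and 195 CPM (log2 fold change -0.82 ± 0.37, unadjusted p = 0.0521). The 3-week birds thus held a pair of high and a pair of low levels, and the low ones matched the older birds. Of the lineage transcription factors, 1 of 23 was higher at an unadjusted p under 0.05, against 1.58% of all genes, which was GATA3 at 4.37 and 6.37 CPM in the mean (unadjusted p = 0.0469, and 0.0511 without the low-total library). Without that library 1 of 23, another gene, was higher and 1 lower at that p, against 2.87% and 2.52% of all genes. NCOA1, a coactivator of nuclear receptors, had the smallest p among 12 nuclear receptors and cofactors, with a log2 fold change of 0.47 ± 0.25 (unadjusted p = 0.0943) and no overlap. Without the low-total library its log2 fold change was 0.25 ± 0.09 (unadjusted p = 0.0213), and the median of the list went from 0.35 to 0.05.

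Of 27 tested local peptides and growth factors, 3 were lower at an unadjusted p under 0.05, against 2.11% of all genes, and none higher. With 8 libraries 20 had a negative log2 fold change, at a median of -0.39, and without the low-total library 16 had one, at a median of -0.12, with 3 again under that p, against 2.52% of all genes. Galanin (GAL), a peptide made in pituitary cells as well as in neurons, was at 48.2, 112, 131 and 534 CPM in the younger birds and at 59.0, 27.6, 38.2 and 29.2 CPM in the older ones. One younger bird lay below the highest older one, and the low-total library was far above all. The log2 fold change was -2.41 ± 0.67 with it and -1.33 ± 0.36 without it (edgeR adjusted p = 0.779 and 0.897). DLK1, a membrane ligand related to Notch ligands that marks growing endocrine tissue, was at 14.2, 15.4, 16.6 and 37.4 CPM and then at 9.75, 8.96, 7.10 and 4.47 CPM without overlap (log2 fold change -1.44, and -1.02 without the low-total library). NMB, which encodes neuromedin B, was likewise lower in every older bird, at 0.43 to 1.16 CPM against 1.37 to 2.88 CPM. Of 14 members of the activin, inhibin and follistatin system 2 were lower at an unadjusted p under 0.05, against 2.11% of all genes, and 1 without the low-total library, against 2.52%. Follistatin (FST), the binding protein that blocks activin, ran from 4.34 to 122 CPM in the younger and from 7.43 to 16.6 CPM in the older birds, and its log2 fold change went from -1.83 (unadjusted p = 0.0489) to -0.59 without the low-total library (unadjusted p = 0.297).

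Genes known to respond to glucocorticoids, the adrenal steroids of the stress response, summed to 1536 to 4603 CPM in the younger birds, highest in the low-total library, and to 1099 to 1561 CPM in the older ones. All 11 tested members had a negative log2 fold change, with a median of -0.85 against 0.00 over all genes tested, and 6 of 11 were lower at an unadjusted p under 0.05 (2.11% of all genes). Without the low-total library 9 of 11 were negative, the median was -0.66 and 3 of 11 were under that p (2.52% of all genes), as were 3 without younger replicate 3. FKBP5, a cochaperone of the glucocorticoid receptor, was at 89.3, 306, 697 and 1409 CPM at 3 weeks and at 149, 133, 163 and 186 CPM at 6 weeks. The highest younger bird had 15.8 times the level of the lowest, and the highest older bird 1.41 times. The log2 fold change was -1.98 ± 0.67 (unadjusted p = 0.0154), and -1.21 without the low-total library. CEBPD, a transcription factor of the acute response, was at 19.3, 69.4, 95.2 and 229 CPM and then at 22.8, 13.0, 38.2 and 36.4 CPM. Its log2 fold change was -1.89 (unadjusted p = 0.0173), and -1.15 without the low-total library (unadjusted p = 0.0543). In FKBP5, CEBPD and GAL the same bird, replicate 1, was the lowest and replicate 4 the highest of the younger birds, and GJD2, which encodes the neuronal gap junction protein connexin 36, had that order too with 32.4, 114, 156 and 240 CPM. SGK1, a kinase of ion transport, was at 72.4 to 112 CPM and then at 51.8 to 81.8 CPM (log2 fold change -0.52, and -0.42 without the low-total library). RASD1 and PDK4 had log2 fold changes of -0.85 and -1.03, and of -0.55 and -0.87 without that library. In HGR pituitaries 10 of the 11 genes were also negative, at a median of -0.32. There 3 of 11 were lower at an unadjusted p under 0.05, against 7.57% of all genes. FKBP5 had a log2 fold change of -0.30 in HGR pituitaries (unadjusted p = 0.468) and of -1.31 in the LGR hypothalamus (unadjusted p = 0.00450). Immediate early genes mark recent stimulation of a cell. Of 16 tested in LGR pituitaries, 14 had a negative log2 fold change, at a median of -0.58. DUSP1 alone, 1 of 16, was lower at an unadjusted p under 0.05, against 2.11% of all genes. Without the low-total library the median was -0.33, and DUSP1 went from -1.18 (unadjusted p = 0.0338) to -0.66 (unadjusted p = 0.103). Another gene of the 16 was then lower at an unadjusted p under 0.05, again 1 of 16, against 2.52% of all genes.

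The circadian clock genes had 1 of 16 higher and 2 of 16 lower at an unadjusted p under 0.05, the same counts with and without the low-total library, against 1.58% higher and 2.11% lower over all genes with it and 2.87% and 2.52% without it. RORA, a nuclear receptor that activates clock genes, was at 5.20 to 8.17 CPM at 3 weeks and at 8.80 to 11.5 CPM at 6 weeks. NFIL3, a repressor in the clock's output loop, was at 50.4, 49.1, 93.3 and 58.9 CPM and then at 45.2, 31.1, 43.5 and 32.02 CPM, and ARNTL2, a partner of CLOCK, at 41.5 to 52.4 CPM and then at 32.1 to 38.2 CPM. All 3 separated the ages without overlap. Of the 16 clock genes, 2 were higher in every older bird (1.99% of all genes) and 2 were lower in every one (1.81%). The hours of sampling are not given in the sources used here.

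Matrix genes had mostly negative log2 fold changes, few of them past a test. Of 54 tested, 42 had a negative log2 fold change with 8 libraries and 45 without the low-total library, at a median of -0.24 and -0.31. At an unadjusted p under 0.05, 3 were lower (2.11% of all genes) and 1 higher (1.58%) with 8 libraries, and 9 lower (2.52%) and 1 higher (2.87%) without the low-total library. The count of 3 became 11 without older replicate 2 and 2 to 4 without any one of the other birds, the low-total one aside. COL14A1, a collagen that lies along fibrils, was at 46.7, 28.4, 54.0 and 29.6 CPM and then at 25.6, 21.3, 26.6 and 15.6 CPM with no overlap (log2 fold change -0.84 ± 0.26, unadjusted p = 0.0111). COL18A1, a collagen of basement membranes, was at 62.3, 58.4 and 67.0 CPM in the first 3 younger birds, at 30.5 CPM in the low-total library and at 36.8 to 48.1 CPM in the older birds. It passed in DESeq2 without that library, at a log2 fold change of -0.59 and an adjusted p of 0.00851. SERPINH1, the chaperone of collagen, was at 377 to 400 CPM in those 3 birds, at 214 CPM in the low-total library and at 207 to 331 CPM at 6 weeks. SPARCL1 was at 126, 420, 263 and 175 CPM and then at 89.7, 145, 60.1 and 129 CPM (log2 fold change -1.22 ± 0.40), and FBLN5 and OGN had log2 fold changes of -1.10 and -0.58 (unadjusted p = 0.0207 and 0.0602). Markers of fibroblasts, whose summed level was 780 to 1589 CPM at 3 weeks and 614 to 1137 CPM at 6 weeks, overlapped between the ages, and in bulk tissue fewer cells of a type and less RNA per cell cannot be told apart.

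Genes of cell division were set beside those of the HGR birds. In LGR pituitaries 42 of 47 had a negative log2 fold change, at a median of -0.23, and 1 of 47 was lower at an unadjusted p under 0.05, against 2.11% of all genes (2 of 47 without the low-total library, 8 without older replicate 4 and 0 without younger replicate 3). That gene was CDC45, which opens the DNA helix for replication, at 17.7 to 22.9 CPM and then at 9.00 to 15.9 CPM (log2 fold change -0.59 ± 0.21). In HGR pituitaries all 47 log2 fold changes were negative, 46 at an unadjusted p under 0.05 (7.57% of all genes) and 13 past the full threshold (0.316%), with a median of -0.86. The difference between the 2 growth groups, tested as the growth rate by age interaction over 16 libraries, was positive in 46 of 47 and under an unadjusted p of 0.05 in 19 of 47, against 2.71% of all genes, and in 18 of 47 without the low-total library, against 3.79% of all genes. No single gene passed after adjustment. The count was 8 to 29 of 47 when any one of the 16 birds was left out, lowest without 6-week HGR replicate 4 and highest without 6-week LGR replicate 3. The summed level of the list was 1058 to 1362 CPM in younger LGR and 1258 to 1530 CPM in younger HGR birds, and 729 to 1190 CPM and 710 to 1006 CPM in the older ones.

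TPX2, which builds the mitotic spindle, had the smallest interaction p of the list. It was at 23.8, 24.2, 25.0 and 16.3 CPM in younger LGR birds and at 22.0, 23.1, 13.9 and 24.0 CPM in older ones, a log2 fold change of -0.11 (unadjusted p = 0.619). In HGR birds it was at 28.4 to 36.2 CPM and then at 12.6 to 17.8 CPM, a log2 fold change of -1.04 (adjusted p = 0.0413). The interaction was 0.92 ± 0.25 (unadjusted p = 0.00255, adjusted p = 0.573). KIF15, a spindle motor, gave 1.10 ± 0.31, and CDK1, the kinase that starts mitosis, 0.45 (unadjusted p = 0.167). Among the older LGR birds replicate 3 was the lowest in TPX2, KIF15, CDK1 and TOP2A. Of the DNA replication genes 5 of 41 had a positive interaction at an unadjusted p under 0.05, against 2.71% of all genes, and 4 of 41 without the low-total library, against 3.79%. In LGR birds 3 of 41 were lower, against 2.11% of all genes, and none higher, among them GINS1, a part of the replicative helicase, at 6.61 to 13.95 CPM and then at 3.02 to 6.35 CPM.

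All 11 tested lymphocyte markers had a positive log2 fold change at 6 weeks in LGR birds, none past adjustment (smallest edgeR adjusted p = 0.779). In 4 of 11 every older bird lay above every younger one, against 1.99% of all genes. Of 11 tested, 9 were higher at an unadjusted p under 0.05 (1.58% of all genes) and none lower, with a median log2 fold change of 1.05, and 8 were so without the low-total library at a median of 0.99 (2.87% of all genes). CD3E, part of the T cell receptor complex, was at 15.0, 23.2, 15.7 and 18.4 CPM in the younger and at 51.6, 54.6, 22.9 and 20.6 CPM in the older birds. Replicates 1 and 2 of the older birds were high, and replicates 3 and 4 lay within or near the range of the younger ones. ZAP70 and LCK, kinases that carry the T cell receptor's signal, had the same split, with 14.1, 15.0, 5.45 and 4.33 CPM and with 19.5, 19.5, 8.94 and 8.15 CPM at 6 weeks, against at most 4.44 and 7.21 CPM at 3 weeks. CD8A, the coreceptor of cytotoxic T cells, was at 2.52 to 3.78 CPM and then at 4.69 to 16.6 CPM (log2 fold change 1.52 ± 0.44, unadjusted p = 0.00708). EOMES, a transcription factor of cytotoxic lymphocytes, was at 12.2, 18.8, 3.61 and 3.68 CPM at 6 weeks and at 3.27 CPM or less at 3 weeks. BTK and BLNK, which act in B cell signalling, had smaller log2 fold changes of 0.59 and 0.63. BLB2, an MHC class II gene at 239 and 270 CPM in the mean that antigen-presenting cells also express, did not follow (log2 fold change 0.18) and was the most abundant of the list, whose summed level was 248 to 419 CPM at 3 weeks and 181 to 686 CPM at 6 weeks. The count of 9 became 6 to 9 when any one LGR bird was left out, with 6 without older replicate 1. In the hypothalamus of the same birds CD3E, ZAP70 and LCK had log2 fold changes of 0.69, 0.85 and 0.71. Their edgeR unadjusted p was 0.0323, 0.0418 and 0.0277 there, and none passed after adjustment. CD247 and BTK were at 0.29 and 0.24 (unadjusted p = 0.246 and 0.434). Of the 11 markers none differed in its change between the tissues at an unadjusted p under 0.05, against 2.97% of all genes. Whether the change is the same in both tissues was not tested. The list was chosen with earlier results of these data known. The paper names CD3E, LCK, PTPRC, BLNK and BTK, all in the list, among genes differing by growth rate in the older hypothalamus. The counts of the list are therefore no independent support.

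In the HGR birds the same markers went the other way, with 9 of 11 lower at an unadjusted p under 0.05, against 7.57% of all genes, and a median of -1.09. CD3E was at 43.7, 19.6, 72.0 and 30.9 CPM in younger and at 14.3, 14.01, 22.8 and 16.4 CPM in older HGR birds. The interaction was positive in all 11 and under an unadjusted p of 0.05 in 10, against 2.71% of all genes, and in 11 without the low-total library, against 3.79%. For CD3E it was 2.35 ± 0.54 on the log2 scale (unadjusted p = 5.4e-04, edgeR adjusted p = 0.451). CCR7, a receptor that guides T cells to lymphoid tissue, had the smallest p of all named genes with 16 libraries, at 4.01 ± 0.71 (unadjusted p = 4.7e-05, adjusted p = 0.449). It was followed by LCK at 2.31, TCF7 at 3.94, CD5 at 2.45 and EOMES at 3.63. In LGR birds alone the log2 fold changes were 1.19 for CCR7, 1.08 for LCK and 2.24 for EOMES. In HGR birds they were -2.83, -1.23 and -1.40. CD5 hardly changed in LGR birds (0.38, edgeR unadjusted p = 0.352) and was lower in older HGR birds (-2.06). TCF7, at 0.32 and 0.99 CPM in the mean of younger and older LGR birds, did not pass the edgeR filter there with 8 libraries. Its log2 fold change in LGR birds was 1.59 in DESeq2 (unadjusted p = 0.00759). In edgeR without the low-total library it was 1.51 (unadjusted p = 0.0125), and in HGR birds it was -2.37. Over all 15280 genes edgeR called no interaction, with 685 (4.48%) at an unadjusted p under 0.05, and none without the low-total library, with 939 (6.08%). Without that library NMRAL1, not a T cell gene of the list, had the smallest edgeR interaction p, at 1.03 ± 0.14 (unadjusted p = 4.24e-06, adjusted p = 0.0655). CCR7 was then at 3.91 ± 0.75 (unadjusted p = 1.2e-04, adjusted p = 0.341). In HGR birds alone the log2 fold change of NMRAL1 was -0.07. DESeq2 called 21 of 21035 genes, which included CCR7, LCK, TCF7, CD5, EOMES, CD3E, ZAP70 and CD247. Without the low-total library it called 69 of 21000 genes. The 69 also held NMRAL1, CFAP52, CFAP74 and DNAI2 and, with a negative sign, SMAD1, PRICKLE1 and KIRREL3. Markers of other cells moved with part of this pattern. The 10 macrophage and microglia markers summed to 2021 and 2211 CPM in older LGR replicates 1 and 2, which were high in T cell genes, and to 957 and 1001 CPM in replicates 3 and 4, against 1199 to 1954 CPM in the younger LGR birds. The erythrocyte list summed to 1953 CPM in older LGR replicate 1 but to 123 CPM in replicate 2. The part of blood, macrophages or tissue-resident cells in the pattern was not tested.

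**Figure D4:**
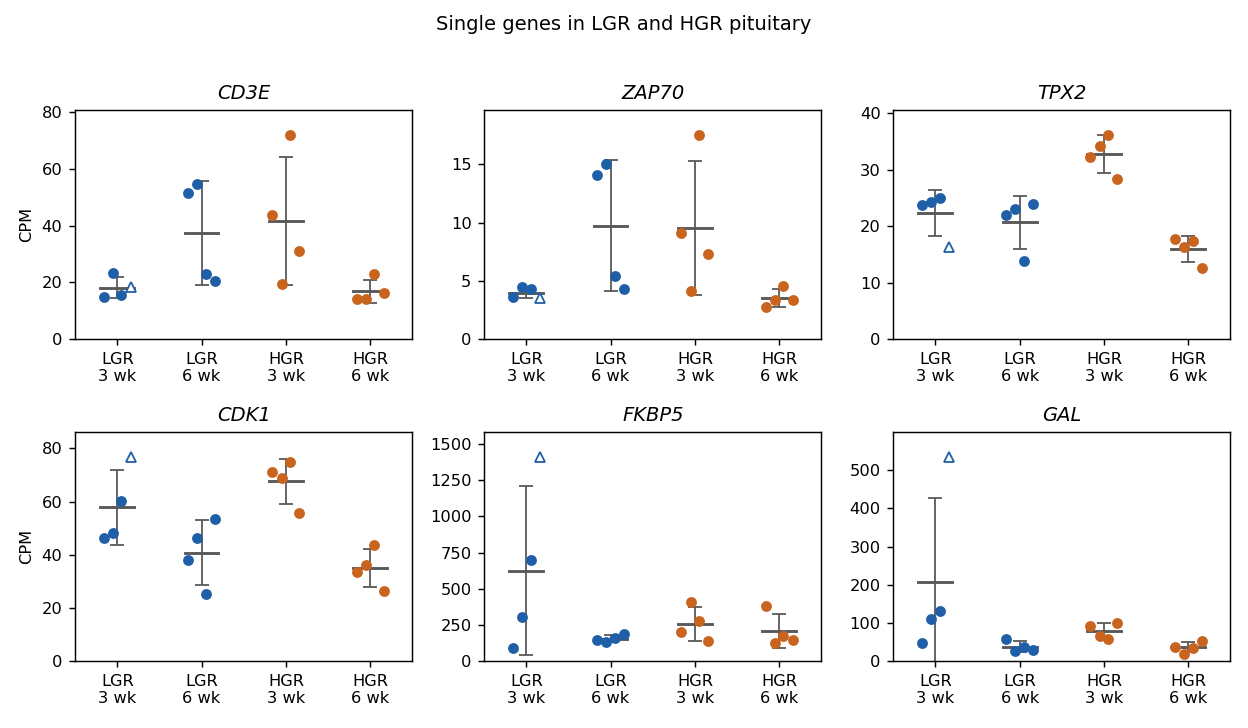
CPM of 6 genes in the 4 birds of each growth group and age, with mean and SD (bars are drawn down to 0 at most). CD3E and ZAP70 are high in 2 older LGR birds and in some younger HGR birds, and TPX2 and CDK1 are lower in older HGR birds. FKBP5 and GAL reach 1409 and 534 CPM among the younger LGR birds, both in the low-total library, which is the open triangle.

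Further immune genes lay beside the lymphocyte list. BF1, an MHC class I gene of the chicken, was at 359, 354, 260 and 489 CPM at 3 weeks and at 818, 630, 508 and 470 CPM at 6 weeks. It passed in DESeq2 without the low-total library, at a log2 fold change of 0.90 and an adjusted p of 0.0110. Of 19 interferon response genes 2 were higher at an unadjusted p under 0.05 with 8 libraries (1.58% of all genes) and 1 without that bird (2.87%), with RSAD2, an antiviral enzyme, at 5.91 to 14.7 CPM and then at 11.9 to 25.8 CPM (unadjusted p = 0.0413, and 0.0629 without that bird). Of 10 macrophage and microglia markers, 1 was lower (2.11% of all genes) and none higher. It was MARCO, a scavenger receptor, at a log2 fold change of -0.56 (unadjusted p = 0.0430, and 0.0585 without the low-total library).

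Some genes known as markers of other cell types were high in single birds. GHRH, the hypothalamic releasing hormone, was at 36.0 CPM in older replicate 1 and at 1.66 CPM or less in the other 7 libraries, and VIP, another hypothalamic peptide, at 23.2 CPM in the same bird and at 0.26 CPM or less elsewhere. Without that bird the log2 fold change of GHRH went from 3.17 to -0.17, and without the low-total library its unadjusted p went from 0.0394 to 0.0551. The summed hypothalamus markers were 15.3 to 71.9 CPM at 3 weeks and 7.28 to 93.4 CPM at 6 weeks, highest in that bird, and 6 of the 8 with a symbol were too low to be tested. GFAP, the filament protein of astrocytes and pituicytes, was at 12.7 and 9.07 CPM in older replicates 1 and 3 and at 1.01 CPM or less in all others. TAL1, a transcription factor of blood and of some neurons, had its highest values in the same birds, at 51.8 and 40.0 CPM. The astrocyte and pituicyte list as a whole did not follow GFAP. It summed to 310 and 206 CPM in those 2 birds, within the 139 to 457 CPM of the younger birds. Of its 8 tested members 5 had a positive and 3 a negative log2 fold change, and 3 and 5 without the low-total library. How much neural lobe or hypothalamic tissue came with each gland was not tested. Of 6 tested markers of ciliated and keratinized epithelium 1 was higher at an unadjusted p under 0.05 (1.58% of all genes). That was FOXJ1, the regulator of motile cilia, at 4.205 to 7.67 CPM and then at 8.29 to 14.1 CPM without overlap (log2 fold change 0.88 ± 0.28). The 6 markers summed to 398 to 674 CPM at 3 weeks and 443 to 533 CPM at 6 weeks, which overlaps. Outside any list, and picked after their values were seen, PSCA, a surface protein of epithelia, and CHIA, an acidic chitinase, were highest in older replicate 3, at 17.9 and 12.2 CPM, as were C11orf88 at 10.1 CPM, PIGR at 15.6 CPM and AQP3 at 8.81 CPM. PSCA, CHIA and C11orf88 passed in DESeq2 without the low-total library, at DESeq2 log2 fold changes of 2.71, 2.32 and 2.22. PSCA was not high in a single bird only, at 16.9 CPM in older LGR replicate 2 and 70.5 CPM in younger HGR replicate 1.

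**Figure D5:**
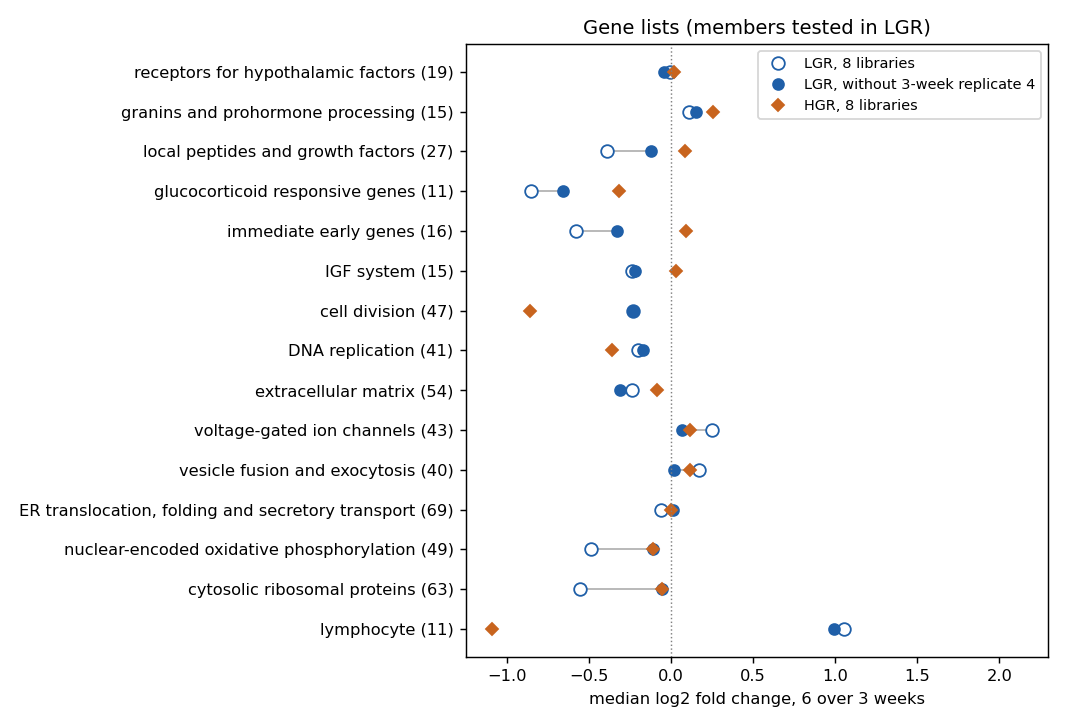
Median log2 fold change (6 over 3 weeks) of 15 gene lists, with the number of members tested in LGR birds. Open circles use all 8 LGR libraries, filled circles leave out 3-week replicate 4, and diamonds are the HGR pituitaries. Ribosomal and oxidative phosphorylation genes move towards 0 when the low-total library is left out, while the LGR and HGR medians lie apart for cell division (-0.23 and -0.86) and lymphocyte genes (1.05 and -1.09).

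The medians of several lists moved when the low-total library was left out. All 63 cytosolic ribosomal protein genes had a negative log2 fold change with 8 libraries, at a median of -0.56, and the median was -0.05 without that bird, with 46 negative and 17 positive. RPS21 shows it, with 127, 176, 122 and 630 CPM at 3 weeks and 103 to 121 CPM at 6 weeks (log2 fold change -0.36 without it). Nuclear genes of oxidative phosphorylation went from a median of -0.49 to -0.11, with 4 of 49 lower at an unadjusted p under 0.05 both ways, against 2.11% and 2.52% of all genes. NDUFA5, a subunit of complex I, was lower in every older bird, at 79.1 to 89.0 CPM against 93.7 to 242 CPM (log2 fold change -0.76, and -0.39 without that bird). Among the secretory transport genes SEC61G, a part of the protein channel of the endoplasmic reticulum, was at 51.6, 72.4, 58.0 and 213 CPM and then at 44.3 to 49.8 CPM (log2 fold change -1.06, and -0.37 without it). Voltage-gated ion channels moved the other way, from a median of 0.25 to 0.07, and genes of vesicle fusion from 0.17 to 0.02. CACNA1H, a low-voltage calcium channel, kept its order without overlap, at 9.51 to 13.1 CPM in the first 3 younger birds, 4.49 CPM in the low-total library and 13.2 to 17.3 CPM at 6 weeks (log2 fold change 0.64, and 0.43 without it).

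The IGF system had no member at an unadjusted p under 0.05 with 8 libraries and 4 of 15 lower without the low-total library, against 2.52% of all genes. They were IGF2BP1, IGF2BP2 and IGF2BP3, which bind messenger RNAs and are known from fetal growth, and IGFALS, which carries IGF in blood. IGF2BP2 was at 28.7, 29.3 and 20.7 CPM in those 3 younger birds and at 17.7 to 19.3 CPM in the older ones. With 8 libraries, where 1.58% of all genes were higher and 2.11% lower at that p, 1 of 41 Wnt genes was higher and 1 lower, with SFRP4, a secreted inhibitor, at 0.76 and 1.63 CPM in the mean. Of 21 cholesterol synthesis genes 1, SC5D, was higher. Of 8 stem and folliculostellate cell markers 2 were lower, with PROM1 at 115 to 160 CPM and then at 97.9 to 110 CPM without overlap.

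The hypothalamus of the same LGR birds gave a second reference, and the tissue by age interaction was tested over 16 libraries. It called 2 of 15754 genes (0.0127%), with 468 (2.97%) at an unadjusted p under 0.05. STK32A differed by 1.46 ± 0.21 on the log2 scale (adjusted p = 0.0247), since it was higher at 6 weeks in the pituitary and lower in the hypothalamus, at 6.21 to 7.29 CPM and then at 3.73 to 5.17 CPM (all values by tissue are scaled over the 16 LGR libraries). Meis2a.1 differed by -1.21 ± 0.17 (adjusted p = 0.0247). This homeobox gene was at 168 to 215 and 163 to 205 CPM in the pituitary of younger and older birds, while in the hypothalamus it was at 17.98 to 24.8 CPM and then at 44.8 to 55.4 CPM. With the bird as a block, which fits because both tissues came from the same birds, no gene passed, and both had an adjusted p of 0.199. The next named genes were GJB1, FILIP1 and ALDH1A1, at -2.86, 0.83 and 2.78 (adjusted p = 0.226, 0.230 and 0.230). GJB1 was near the floor in the pituitary, at 0.26 to 0.71 CPM in the younger and 0.05 to 0.13 CPM in the older birds. In the hypothalamus it was at 5.01 to 7.26 CPM and then at 6.71 to 13.0 CPM. ALDH1A1, which makes retinoic acid, was at 135 to 193 CPM in the younger and at 19.3 to 69.5 CPM in the older hypothalami, and at 18.2 to 51.7 CPM and 30.8 to 64.3 CPM in the pituitaries. FILIP1, a binder of filamin, was at 43.2 to 52.4 CPM and then at 65.0 to 71.9 CPM in the pituitary without overlap. The calls were 0 to 15 when any one of the 16 libraries was left out. They were 0 without any one of the older pituitaries and without younger pituitary replicate 3. They were also 0 without younger hypothalamus replicate 2 or 3 and without older hypothalamus replicate 1, 2 or 4. Leaving out the older hypothalamus replicate 3 gave 15. Those 15 included CGA, CHGA, TSHB, LHX3 and PITX1, none of which was called with all 16 libraries. With all libraries the log2 fold changes of CGA, CHGA and TSHB were -1.91, -1.36 and -2.18 in the hypothalamus. In the pituitary they were -0.58, 0.46 and 0.24. How much pituitary tissue came with each hypothalamus was not tested. The paper left some hypothalamus libraries out after clustering, among them an older LGR one whose number it does not give. All LGR hypothalamus libraries were kept here. SYT4, a synaptotagmin, was called in addition without the low-total library (3 of 15896 genes, 0.0189%), at -1.06.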

How the data were processed

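The authors deposited whole-number read counts per Ensembl gene for 32 libraries, made with CASAVA 1.8.2, FastQC, Bowtie2 and RSEM as the paper and the submitters' notes name them, with no normalization. Their methods describe the hypothalamus and name the Ensembl chicken assembly GRCg6a, by its accession, for the alignment, while the tables that hold the coordinates name no build. The deposited result tables were used only for symbols and coordinates. Their columns of means, fold changes and p-values from the authors' DESeq2 comparison were not used. Of 24881 genes 10132 had a symbol. Counts were tested with edgeR 4.0.16 (R 4.3.3; TMM, expression filter with minimum count 10 and total 15, quasi-likelihood test, Benjamini-Hochberg adjustment). CPM are scaled over the 16 pituitary libraries. DESeq2 1.42.0 and limma 3.58.1 were alternatives, as were other scaling, no filter, thinned counts, a 16-library fit, a replicate block and leaving out libraries. Members and lists were chosen with earlier results of these data known.

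Genes were named as hormones, as the smallest p of a list or of an interaction. Genes called by DESeq2 or limma and all others named (such as GAL, GJD2, GHRHR, VIP, PIGR and TPX2) were chosen after their values were seen. Replicates of a group differed by more than counting noise (chi-square per gene of 23.5 or more). Birds with the same number at the 2 ages are different birds, while the 2 tissues share birds, as the labels' descriptions show.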

Additional observations from a re-analysis of the deposited data

Results flagged for a closer look

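In 204 groups of 4 birds, for the named genes and the library measures, 23 held a bird whose gap to its nearest neighbour exceeded the 95% limit of Dixon's test. Chance would flag about 1 in 20 independent groups of normally distributed values. That rate cannot be applied here, since many of the genes were chosen after their values were seen and the groups of an age share the same 4 birds. In 13 of the 23 the bird was replicate 4 of the younger LGR birds, the low-total library. It was the highest in OPTC (35.9 CPM), NMRAL1 (47.5 CPM), CHIA (4.73 CPM), ENSGALG00000036865 (2.13 CPM), DLK1 (37.4 CPM), SEC61G (213 CPM), RPS21 (630 CPM) and GAL (534 CPM). It was the lowest in PTPRC (15.1 CPM), TPX2 (16.3 CPM) and SERPINH1 (214 CPM), in the genes detected (16447), and the highest in the share of the 10 highest genes (34.8%).

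Replicate 2 of the younger birds stood apart in ENSGALG00000027891 (552 CPM), PROM1 (160 CPM) and TCF7 (0.588 CPM) as the highest, and in PIGR (0.261 CPM) and AQP3 (0.392 CPM) as the lowest. Among the older birds replicate 1 was the highest in GHRH (36.0 CPM) and VIP (23.2 CPM), replicate 2 in PROM1 (110 CPM) and FBLN5 (3.47 CPM), and replicate 3 in FILIP1 (73.3 CPM).

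The change with age differed between pituitary and hypothalamus of LGR birds, by the test of the difference itself, for STK32A (1.46 on the log2 scale) and Meis2a.1 (-1.21). Neither passed with the bird as a block (adjusted p = 0.199).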

How the results depend on the processing

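The count of 0 genes called in LGR pituitaries stayed 0 in edgeR with RLE or upper-quartile scaling, no filter, thinned counts, the adjusted p alone and the replicate block. It was 9 with DESeq2, 2 with voomWithQualityWeights, 1 in a fit over 16 pituitary libraries and 0 to 1 without any one replicate. Added after seeing the data, DESeq2 without the low-total library gave 25 and the fit over 15 libraries 2. The 542 genes at an unadjusted p under 0.05 became 942 with DESeq2, 994 with voomWithQualityWeights, 1712 over 16 libraries, 298 to 903 without any one replicate (298 without 6-week replicate 1, 332 without 6-week replicate 3, 903 without 3-week replicate 1), and 885 and 1143 in the same added fits. The replicate block gave 500 such genes, but same-numbered birds deviated together at a correlation of only 0.02 to 0.18, so the numbers do not pair the birds.

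For the difference from HGR the count of 0 became 21 with DESeq2, 69 with DESeq2 without the low-total library and 0 to 2 without any one replicate (2 without 3-week HGR replicate 2), and the 685 genes at an unadjusted p under 0.05 became 539 to 1130, and 1048 in the added fit. For the difference from the hypothalamus the count of 2 became 0 without the filter, 15 with DESeq2, 0 with the bird as a replicate block and 0 to 15 without any one replicate. The cause was not tested in any of these.

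Sign changes were limited to small differences and to GHRH. POMC (-0.04) turned to 0.040 with the block, 0.29 with voomWithQualityWeights, 0.37 in both added fits, and ran from -0.31 to 0.38 without any one replicate. FSHB (-0.01) turned to 0.0124 with upper-quartile scaling, 0.00773 with no filter, 0.070 with the block, 0.10 with voomWithQualityWeights and 0.083 and 0.082 in the added fits, and ran from -0.48 to 0.50 without any one replicate. Meis2a.1 in the pituitary (-0.01) turned to 0.0115, 0.00359 and 0.0134 with upper-quartile scaling, no filter and thinned counts. Without any one replicate, PRL ran from -0.16 to 0.43, GHRH from -0.17 to 3.55, Meis2a.1 from -0.072 to 0.071, TOP2A from -0.35 to 0.12, TPX2 from -0.23 to 0.042 and KIF15 from -0.22 to 0.21. The depth of 6231478 counts gives the low-total library a larger counting error in weakly expressed genes than the others.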
